A study of Mus musculus with 6 samples.

Results

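Glycolysis genes were followed across 3 stages of the differentiation of mouse embryonic stem cells into neurons. The set holds 32 genes chosen by name: the enzymes from hexokinase to lactate dehydrogenase with their isoenzymes, the sugar transporters Slc2a1 and Slc2a3, the lactate and pyruvate carriers Slc16a1 and Slc16a3, the regulators of phosphofructokinase (Pfkfb1 to Pfkfb4) and the kinases that switch off pyruvate dehydrogenase (Pdk1 to Pdk4). Each of the 32 names matched 1 of the 46517 gene IDs listed, and all 32 passed the filter of at least 1 TPM in at least 2 of the 6 libraries, as did 20232 genes in all. TPM is an abundance per unit of transcript length that adds up to the same total in every library. Hk3 passed this filter through the NPC libraries and Pdk4 through the mESC libraries alone, so their differences are bound to the filter and lend nothing to the counts below, which include them.

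E14TG2a, a line of mouse embryonic stem cells, was the source of every culture, with the genotype given as WT and no treatment. The groups were mESC (stem cells on gelatin without feeders, in serum medium with LIF), NPC (neuronal progenitors) and NC, which the labels do not spell out and which is taken as the last stage of the design text, glutamatergic pyramidal neurons made by a published protocol. Each group had 2 libraries, called biological replicates in the labels, and all are bulk cultures of 1 cell line. The cell type label names embryonic stem cells for all 6 libraries, so the groups rest on the sample titles.

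Glycolysis splits glucose into pyruvate and yields ATP without oxygen. Glucose enters through the SLC2A transporters, is trapped by hexokinase and committed by phosphofructokinase, whose activator is made and degraded by the PFKFB enzymes. Pyruvate is then reduced to lactate by lactate dehydrogenase and exported by SLC16A carriers, or enters mitochondria, where the PDK kinases inhibit its oxidation. Pluripotent cells and dividing neural progenitors are known for strong glycolysis, and neurons for a greater reliance on mitochondrial respiration. Many of these genes are known targets of hypoxia-inducible factor (HIF) and of MYC.

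The libraries held 1.57 to 2.27 Gb of aligned bases each, estimated from the ratio of coverage to FPKM. Replicates differed on the log2 scale with an SD across tested genes of 0.4996 for mESC, 0.406 for NPC and 0.5997 for NC. The 5 stem cell markers summed to 4738 and 5075 TPM in mESC and to between 9.93 and 14.6 TPM in the other 4 libraries. The 6 neuron markers summed to 251 and 315 TPM in mESC, 523 and 821 in NPC, with 3418 and 3066 in NC. The 5 neural progenitor markers summed to 26.9 and 43.8 TPM in mESC, 774 and 667 in NPC, with 1099 and 340.5 in NC. NC replicate 1 thus lay above both NPC libraries. From NPC to NC 1 of these 5 was called higher and 1 lower, against 15.2% and 10.1% of all tested genes. The 5 glutamatergic markers (Slc17a6, Slc17a7, Gria2, Neurod6 and Tbr1) summed to 10.7 and 19.6 TPM in NPC and to 152 and 98.7 in NC. Only 3 of the 5 passed the filter, and 4 and 3 reached 1 TPM in NC replicates 1 and 2, so this list was met only in part. Slc17a6 stood at 28.9 and 21.6 TPM in NC and Slc17a7 at 3.21 and 1.69. Markers of other cell types also moved: 8 fibroblast and mesenchyme markers summed to 18.3 and 8.69 TPM in mESC, 34.7 and 71.7 in NPC, then 725 and 748 in NC, with 8 of 8 called higher in NC than in mESC, and 4 smooth muscle markers to 112 and 78.0, 15.7 and 21.9, and 276 and 387 TPM. Of all tested genes 37.8% were called higher in NC than in mESC. The part of these other cell types in the NC values was not tested, and in these bulk cultures fewer cells of a type and less RNA per cell cannot be told apart. All 37 mitochondrial genes were listed at 0 in every library, so nothing is said here of mitochondrially encoded respiratory subunits. No source used here states the strand setting, so reads of overlapping opposite-strand genes cannot be told apart.

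To show what regulatory sequence these genes carry, the 250 bases before the RefSeq start were searched on both strands for 3 motifs. These were ACGTG, 1 form of the core to which HIF binds, CACGTG, the E-box of MYC-type factors, which contains ACGTG on both strands, and GGGCGG, the GC box of Sp1-type factors. Other forms of the HIF core were not searched, so a member without ACGTG is not shown to lack such a core. RefSeq promoters (GRCm38.p6) were matched for 30 of 32 members, all but Slc2a3 and Eno1b, and where a gene had several starts the one nearest the annotated gene start was used. ACGTG was present in 12 of 30 members (40.0%) and in 16.6% of all 32851 promoters of this length, CACGTG in 4 (13.3%) and 6.02%, and GGGCGG in 15 (50.0%) and 32.7%. Of the 18 members with a promoter that were called lower in NC than in NPC, 9 hold ACGTG in the bases searched, the filter-bound Hk3 among them. The other 9 do not: Gpi1, Pfkl, Aldoa, Tpi1, Gapdh, Eno1, Eno3, Pkm and Pdk1. Of these, Aldoa and Eno1 have 3 RefSeq starts each and Pkm and Pdk1 have 2, and only 1 start of each was searched. Shown are 5 members that were lower in NC and hold a match, and Eno2, which was higher in NC and holds none. They were picked after their values were seen. Capitals mark ACGTG or its reverse complement CACGT, and all sequences run 5′ to 3′ on the gene's strand. The positions are chr4:119108495-119108744, plus strand for Slc2a1, chr6:82774455-82774704, minus strand for Hk2, chrX:106186850-106187099, plus strand for Pgk1, chr7:46845554-46845803, plus strand for Ldha, chr11:120948817-120949066, plus strand for Slc16a3 and chr6:124769674-124769923, minus strand for Eno2.
Slc2a1: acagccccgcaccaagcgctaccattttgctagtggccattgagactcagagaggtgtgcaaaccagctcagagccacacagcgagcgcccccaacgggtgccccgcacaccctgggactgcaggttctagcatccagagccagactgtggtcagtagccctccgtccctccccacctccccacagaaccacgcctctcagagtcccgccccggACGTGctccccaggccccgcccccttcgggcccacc
Hk2: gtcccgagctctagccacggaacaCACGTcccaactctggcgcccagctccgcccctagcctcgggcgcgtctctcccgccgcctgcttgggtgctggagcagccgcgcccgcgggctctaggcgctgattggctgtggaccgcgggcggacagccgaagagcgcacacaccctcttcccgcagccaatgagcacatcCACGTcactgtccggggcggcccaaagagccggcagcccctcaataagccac
Pgk1: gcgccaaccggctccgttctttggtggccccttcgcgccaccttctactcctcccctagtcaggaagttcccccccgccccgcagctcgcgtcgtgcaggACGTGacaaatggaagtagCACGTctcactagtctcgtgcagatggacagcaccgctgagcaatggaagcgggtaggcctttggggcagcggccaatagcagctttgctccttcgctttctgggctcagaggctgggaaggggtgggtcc
Ldha: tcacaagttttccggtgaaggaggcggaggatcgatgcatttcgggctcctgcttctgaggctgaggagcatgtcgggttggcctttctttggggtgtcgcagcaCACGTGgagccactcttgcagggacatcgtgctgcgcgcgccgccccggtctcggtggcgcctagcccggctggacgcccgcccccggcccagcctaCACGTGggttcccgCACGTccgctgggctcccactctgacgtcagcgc
Slc16a3: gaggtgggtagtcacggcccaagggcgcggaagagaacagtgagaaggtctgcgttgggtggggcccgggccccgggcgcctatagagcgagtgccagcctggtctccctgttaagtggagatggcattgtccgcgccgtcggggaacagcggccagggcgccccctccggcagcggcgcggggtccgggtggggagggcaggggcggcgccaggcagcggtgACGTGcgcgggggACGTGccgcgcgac
Eno2: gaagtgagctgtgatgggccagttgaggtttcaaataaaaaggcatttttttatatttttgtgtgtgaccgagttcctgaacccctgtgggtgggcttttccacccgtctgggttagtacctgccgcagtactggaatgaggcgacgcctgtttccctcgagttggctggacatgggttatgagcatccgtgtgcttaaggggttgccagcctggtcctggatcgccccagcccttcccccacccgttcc
Ldha carried 3 separate stretches, CACGTG at 145 and at 48 bases before the start and CACGT at 34. Slc16a3 carried 2, at 27 and 14 bases before the start, Hk2 2, at 226 and 52, Pgk1 2, at 150 and 131, and Slc2a1 1, at 36. Among the other members Slc16a1, Pgam1, Pdk2, Pdk3, Pfkfb3, Pfkm and Hk3 carried 1 stretch each, and these members include some that rose. A match is a description of letters and not a bound site.

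Of the 32 members, 21 had no call between mESC and NPC, a contrast in which 40.0% of all tested genes were called. Of these 21, 14 were lower in NC than in NPC, and how many of all tested genes share this pattern was not counted. No call does not mean no change: Slc2a1 and Slc16a3 were higher and Pdk1 lower in NPC than in mESC without overlap. The 20 enzymes from hexokinase to lactate dehydrogenase together took 1.71% and 1.48% of all TPM in the 2 mESC libraries, 1.61% and 1.76% in NPC, with 0.652% and 0.397% in NC. In this sum the NC libraries lay below all 4 others, and mESC and NPC overlapped. Between NC and NPC, 20 of 32 members were called lower (62.5%, against 10.1% of all tested genes) and 3 higher (9.38%, against 15.2%), by limma at an adjusted p under 0.05. The 20 include Hk3, whose difference is bound to the filter. The median log2 fold change of the 32 members was -1.69, against 0.11 over all tested genes. Between NC and mESC, 19 were lower (59.4%, against 22.1% of all genes) and 9 higher (28.1%, against 37.8%), with a median of -1.25 against 0.31. From mESC to NPC, 7 members rose (21.9%, against 26.0%) and 4 fell (12.5%, against 14.0%), with a median of 0.20 against 0.18, shares near those of all genes. The largest group, 13 members, had no call between mESC and NPC and was lower in NC than in both earlier stages: Slc2a1, Pfkl, Aldoa, Gapdh, Pgk1, Pgam1, Eno1, Eno1b, Pkm, Ldha, Pdk1, Slc16a1 and Slc16a3. The share of all tested genes in such a group was not counted either.

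The calls between NC and NPC depended on single libraries. Hk3 is named below among the calls that remained, but its difference is bound to the filter and adds nothing. Without NPC replicate 1, 5 of the 20 lower calls remained (Hk2, Hk3, Slc2a1, Slc16a1 and Pdk3), none of the higher ones did, and the calls over all genes went from 5123 to 309. Without NPC replicate 2, 10 lower calls remained and 1276 over all genes. All of these fits kept the direction of every call, and the lost members had a limma adjusted p from 0.0537 to 0.265. Over all genes, 65.0% of the calls between NPC and mESC, 60.1% between NC and NPC and 63.2% between NC and mESC were higher. After median-of-ratios scaling these shares were 52.4%, 54.3% and 51.9% and the median log2 fold changes -0.02, 0.04 and 0.03, and after quantile normalization the shares were 51.2%, 47.65% and 47.2%.

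In all, 11 members were called in either direction between NPC and mESC, 23 between NC and NPC and 28 between NC and mESC, against 40.0%, 25.3% and 59.9% of all tested genes. Libraries of the compared stages did not overlap for more members than were called: 14 lay higher and 9 lower in NPC than in mESC (against 45.9% and 28.3% of all genes), 8 higher and 20 lower in NC than in NPC (against 40.3% and 28.2%), and 10 higher and 20 lower in NC than in mESC (against 48.5% and 30.2%).

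**Figure D1:**
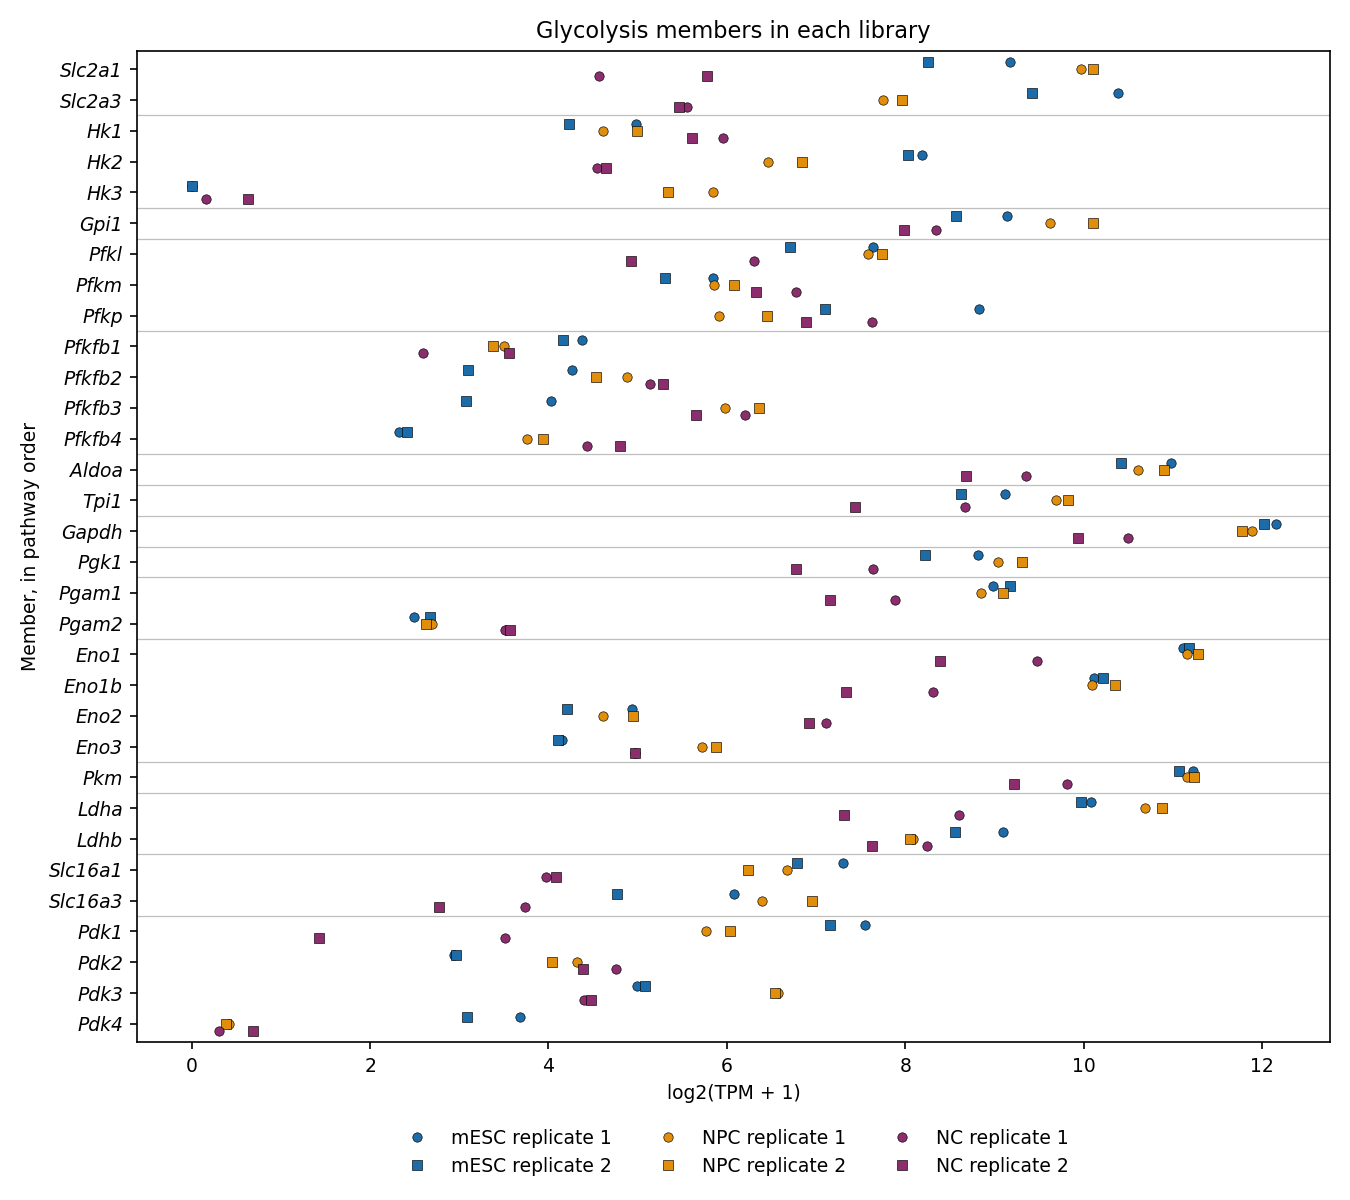
Abundance of each of the 32 members as log2(TPM + 1) on the horizontal axis, with members in pathway order on the vertical axis, colour for the stage and circles and squares for replicates 1 and 2. For Gapdh, Aldoa, Pkm, Eno1 and Ldha the NC points lie to the left of all mESC and NPC points, and for Eno2 and Pfkfb4 to the right.

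Glucose transport, summed here over Slc2a1 and Slc2a3 alone, had the deepest fall of the summed steps from NPC to NC. Slc2a1, the widely expressed glucose transporter GLUT1, gave 577 TPM in the first mESC replicate and 304 in the second, 998 and 1096 in NPC, then 22.7 and 53.7 in NC. The 3 stages did not overlap, with NPC highest and NC lowest. The log2 fold change was -4.86 from NPC to NC (SE 0.437, limma adjusted p = 0.00299) and 1.32 from mESC to NPC, which missed the threshold (SE 0.437, limma adjusted p = 0.0521) but passed without NC replicate 1 (limma adjusted p = 0.0357) or NC replicate 2 (limma adjusted p = 0.036). Slc2a3, the high-affinity transporter GLUT3 that is known as the neuronal form, went from 1335 and 682 TPM to 214 and 249 and to 45.8 and 43.3. It fell at each step, by 2.04 on the log2 scale to NPC (limma adjusted p = 0.00253) and by 2.35 to NC (SE 0.298 for both, limma adjusted p = 0.0047), the latter not called without NPC replicate 1 (limma adjusted p = 0.0542). The leading transporter changed: Slc2a1 gave 30.2% and 30.8% of the summed TPM of the 2 genes in mESC, 82.4% and 81.5% in NPC, then 33.1% and 55.4% in NC, where the replicates spread most. The antisense gene Gm12868, which shares 105 exon bases with Slc2a1, did not exceed 28.8 TPM. Among the 12 other tested carriers of sugars and monocarboxylates 2 rose and 2 fell from NPC to NC, and 0 did without NPC replicate 1 or NPC replicate 2. With all libraries 16.7% of these carriers went each way, against 15.2% higher and 10.1% lower over all tested genes. The highest value of another listed SLC2A carrier was 36.5 TPM, for Slc2a8 in mESC replicate 1, named after values were seen.

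Hexokinase, which traps glucose in the cell, changed its isoenzyme. Hk2, the form typical of stem and tumour cells, was at 290.3 and 261 TPM in mESC, 87.1 and 114 in NPC, with 22.3 and 24.0 in NC. It fell by 1.46 on the log2 scale to NPC (SE 0.168, limma adjusted p = 0.001) and by 2.06 to NC (SE 0.168, limma adjusted p = 0.00293), with no overlap of stages and both calls kept without any 1 library. Hk1, the main hexokinase of brain, was at 30.6 and 17.8 TPM in mESC, 23.5 and 30.9 in NPC, then 61.0 and 47.6 in NC. The mESC and NPC ranges overlapped, and NC exceeded both. Its rise from mESC to NC was called (log2 fold change 1.17 with an SE of 0.289, limma adjusted p = 0.0123) but not without NC replicate 1 (limma adjusted p = 0.0833) or mESC replicate 2 (limma adjusted p = 0.0702), and that from NPC to NC missed the threshold (log2 fold change 0.97, limma adjusted p = 0.0511). The share of Hk1 in the summed hexokinase TPM thus went from 9.52% and 6.39% in mESC to 73.1% and 66.0% in NC, while the sum itself went from 321 and 278 TPM to 83.4 and 72.2.

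Hk3, a hexokinase known from white blood cells, was listed at 0 in both mESC libraries, at 56.4 and 39.6 TPM in NPC and at 0.118 and 0.555 in NC. Because it is at 0 in mESC no fold is given for the first step. Its exons overlap those of Unc5a, a netrin receptor gene on the opposite strand, by 34 bases or 0.923% of the Hk3 exons. Unc5a stood at 0.367 and 0.336 TPM in mESC, 185.5 and 169 in NPC, with 19.98 and 19.85 in NC, so it is high in the same stage, and its part in the Hk3 values was not tested. Of 6 blood and microglia markers C1qa was listed at 0 in every library, Ptprc did not exceed 0.0292 TPM, and their sum lay between 0 and 5.71 TPM, the highest value being NPC replicate 1.

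Gpi1, the isomerase that follows, was at 565 and 379 TPM in mESC, 786 and 1102 in NPC, then 324 and 253 in NC. The stages did not overlap, with NPC highest. It rose to NPC (log2 fold change 1.01 with an SE of 0.26, limma adjusted p = 0.0224) and fell to NC (-1.70, limma adjusted p = 0.00731). The rise was not called without NPC replicate 2 (limma adjusted p = 0.157) or mESC replicate 2 (limma adjusted p = 0.148), nor the fall without NC replicate 2, NPC replicate 1 or NPC replicate 2 (limma adjusted p from 0.0508 to 0.062).

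Phosphofructokinase, the committing step, had overlapping summed TPM in NPC (306 and 366) and NC (383 and 226) but differed in its leading subunit. Pfkl, the liver-type subunit, was at 198 and 104 TPM in mESC, 190.2 and 212 in NPC, with 78.0 and 29.4 in NC. Pfkp, the platelet-type subunit that is also abundant in brain, was at 452 and 136.5 TPM in mESC, 59.3 and 86.7 in NPC, then 197 and 117.5 in NC. Pfkm, the muscle-type subunit, was at 56.5 and 38.5, 56.9 and 66.8, and 108.5 and 79.1 TPM. So Pfkl led in NPC with 62.1% and 58.0% of the family, and Pfkp led in NC with 51.3% and 52.0% and in mESC with 63.9% and 49.0%.

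Pfkl fell from NPC to NC (log2 fold change -2.04 with an SE of 0.476, limma adjusted p = 0.0249) and Pfkm was higher in NC than in mESC (0.97, SE 0.24, limma adjusted p = 0.0124). The 2 NC libraries of Pfkl were far apart, and without NC replicate 2 its fall to NC was -1.35 (limma adjusted p = 0.0968) and its difference from mESC -0.87 (limma adjusted p = 0.14), against -1.56 with all libraries (limma adjusted p = 0.0279). The call on the fall of Pfkl was also lost without any 1 of the other libraries but NC replicate 1, though its log2 fold change stayed between -2.12 and -1.96. In the same fits its difference from mESC lost its call, at log2 fold changes from -2.02 to -1.09. Pfkp was lower in NPC than in mESC (-1.78, SE 0.551, limma adjusted p = 0.0418), a difference of -0.92 without mESC replicate 1 (limma adjusted p = 0.173) and uncalled without any 1 library but mESC replicate 2 (limma adjusted p from 0.0804 to 0.199). The call of Pfkm was lost without NC replicate 1 (limma adjusted p = 0.0769) or mESC replicate 2 (limma adjusted p from 0.0632 to 0.0834 for Pfkm and Pfkl). Pfkp shares 748 exon bases (5.58% of its exons) with Pitrm1 on the opposite strand, which stood at 150.5 and 124 TPM in mESC and at 63.0 to 87.2 in the other libraries.

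As with summed phosphofructokinase, the PFKFB enzymes, which set the level of the activator fructose 2,6-bisphosphate, lacked the NPC to NC fall of most other steps. Their summed TPM was 57.3 and 36.2 in mESC, 113 and 127 in NPC, with 132.5 and 125 in NC. Pfkfb3, the form with the strongest kinase activity, was at 15.3 and 7.43 TPM in mESC, 61.8 and 81.1 in NPC, then 72.8 and 49.3 in NC. NPC and NC overlapped and both exceeded mESC (log2 fold change to NPC 2.61, SE 0.351, limma adjusted p = 0.00183, and mESC to NC 2.38, limma adjusted p = 0.00155). Pfkfb4 was at 4.03 and 4.33, 12.6 and 14.3, and 20.5 and 26.9 TPM, and rose to NPC (1.48, SE 0.223, limma adjusted p = 0.00286). Its further rise to NC (0.77, limma adjusted p = 0.0487) was called under 5 of 19 alternatives and in no fit that left out 1 library (limma adjusted p from 0.0537 to 0.265). Pfkfb2, the heart form, was at 18.2 and 7.54, 28.4 and 22.2, and 34.1 and 38.1 TPM, and Pfkfb1, the liver form, at 19.7 and 16.9, 10.3 and 9.38, and 5.05 and 10.8 TPM.

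Pfkfb2 was higher in NC than in mESC (log2 fold change 1.53, limma adjusted p = 0.0118), and Pfkfb1 lower (-1.19, limma adjusted p = 0.0204). The Pfkfb2 value was 0.95 without mESC replicate 2 and was not called without either NC library (limma adjusted p = 0.0587 and 0.0793). The Pfkfb1 value was -0.71 without NC replicate 1 and was not called without mESC replicate 1 (limma adjusted p = 0.128) or mESC replicate 2 (limma adjusted p = 0.0931). Pfkfb1 in NPC was called lower than in mESC without NC replicate 1 (limma adjusted p = 0.0247) or NC replicate 2 (limma adjusted p = 0.0262) and also with median-of-ratios scaling, quantile normalization or FPKM (limma adjusted p from 0.035 to 0.0424), and Pfkfb2 higher without mESC replicate 1 (limma adjusted p = 0.0147).

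**Figure D2:**
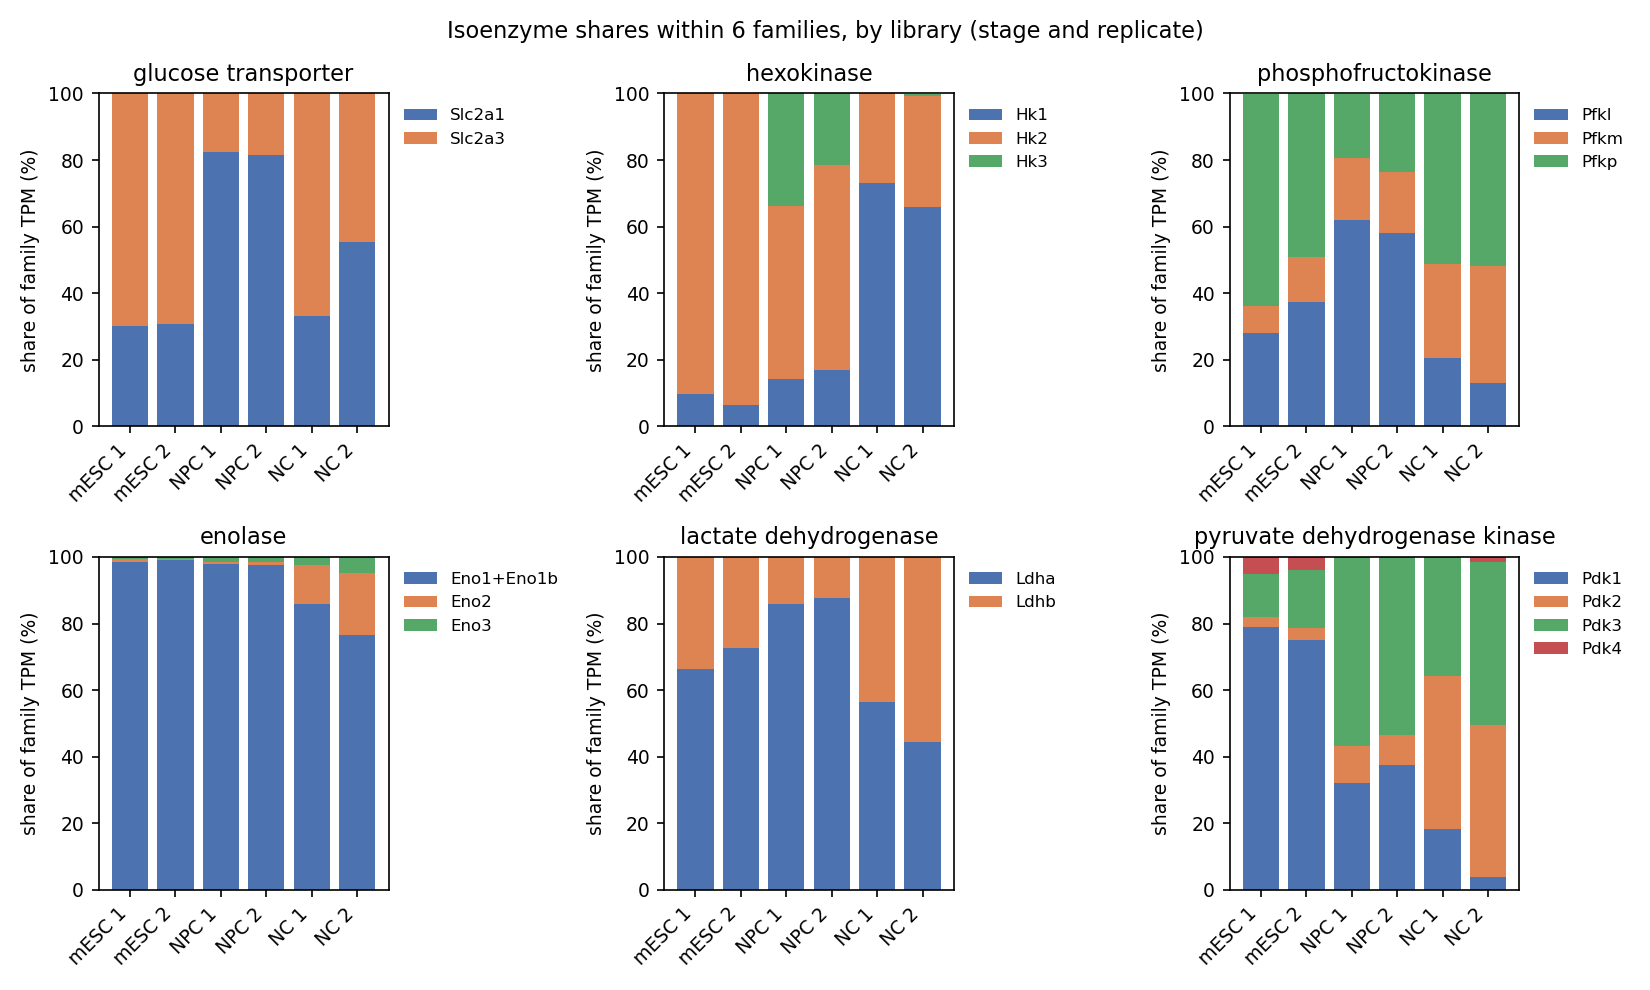
Share of each isoenzyme in the summed TPM of 6 families (vertical axes, percent), with 1 stacked bar for each of the 6 libraries. Hk2 gives way to Hk1 from mESC to NC, Slc2a1 and Pfkl take their largest shares in NPC, and Pdk1 gives way to Pdk3 and Pdk2.

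The central enzymes, from aldolase to the mutase, fell together from NPC to NC apart from the minor form Pgam2. Aldoa, which cleaves fructose 1,6-bisphosphate, was at 2015 and 1372 TPM in mESC, 1560 and 1913 in NPC, with 653 and 408 in NC. Gapdh, the dehydrogenase that makes NADH, was the most abundant member with 4547 and 4153, 3789 and 3513, and 1441 and 982 TPM. Pgk1, the first ATP-making step, was at 450.4 and 297, 526.5 and 634.5, and 199 and 108 TPM. In each of these genes both NC libraries lay below the 4 others. The log2 fold changes from NPC to NC were -1.74 for Aldoa (SE 0.287, limma adjusted p = 0.00902), -1.62 for Gapdh (SE 0.22, limma adjusted p = 0.00556) and -1.97 for Pgk1 (SE 0.324, limma adjusted p = 0.00886). Tpi1, the triose isomerase, was at 554 and 395, 827 and 908, and 405 and 173 TPM, so that NC overlapped mESC. It fell from NPC to NC by 1.71 on the log2 scale (SE 0.385, limma adjusted p = 0.0225), and by 1.10 without NC replicate 2, where the call was lost (limma adjusted p = 0.0515).

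Pgam1, the mutase, was at 504 and 578 TPM in mESC, 461 and 544 in NPC, then 235 and 142 in NC, and fell to NC by 1.45 on the log2 scale (SE 0.248, limma adjusted p = 0.0099). The muscle form Pgam2 was at 4.61 and 5.37, 5.46 and 5.19, and 10.4 and 10.9 TPM, the NC libraries lying above all others (log2 fold change NPC to NC 0.88, limma adjusted p = 0.0319). In NC it made up 4.24% and 7.14% of the mutase TPM. Without NPC replicate 1 all of Aldoa, Tpi1, Gapdh, Pgk1, Pgam1 and Pgam2 lost the call between NC and NPC (limma adjusted p from 0.0708 to 0.167), and without NPC replicate 2 all of these but Gapdh (limma adjusted p from 0.0744 to 0.17). Tpi1 or Pgam2, or both, also lost it without any 1 of the other 4 libraries (limma adjusted p from 0.0502 to 0.0851). Against mESC, Pgk1 in NC was not called without NC replicate 2 (limma adjusted p = 0.0668) or mESC replicate 1 (limma adjusted p = 0.113), and the rise of Pgam2 was 0.35 after quantile normalization (limma adjusted p = 0.247). Of 9 muscle markers, Myod1 was listed at 0 in every library and their sum was 38.4 and 32.1 TPM in mESC, 7.63 and 5.13 in NPC, with 12.5 and 23.9 in NC.

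Enolase, which forms phosphoenolpyruvate, gained its neuronal form. Eno2, known as neuron-specific enolase, was at 29.6 and 17.5 TPM in mESC, 23.5 and 29.9 in NPC, then 137 and 121 in NC. mESC and NPC overlapped, and both NC libraries lay above them, with a log2 fold change from NPC of 2.24 (SE 0.263, limma adjusted p = 0.004), not called without NPC replicate 1. Eno1 and Eno1b are near-identical copies, alike in 99.4% of coding bases, and held a ratio of 1.89 to 2.25 in the 6 libraries, so reads of these copies may have been split by the counting. Eno1 was at 2221 and 2317, 2282 and 2480, and 711 and 334.5 TPM, with a log2 fold change of -2.28 from NPC to NC (SE 0.331, limma adjusted p = 0.00649). Summed with Eno1b it gave 98.6% and 99.1% of enolase TPM in mESC and 86.0% and 76.6% in NC, where Eno2 gave 11.5% and 18.7%. These shares leave out the processed pseudogene Gm4735, alike to Eno1 in 99.6% of matched bases and listed at 271 and 133 TPM in NC.

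Eno3, the muscle form, was at 16.8 and 16.2 TPM in mESC, 51.9 and 57.9 in NPC, then 30.3 and 30.3 in NC, and the stages did not overlap. It rose to NPC (log2 fold change 1.67 with an SE of 0.151, limma adjusted p = 0.000396) and fell to NC (-0.83, limma adjusted p = 0.0116). Pkm, the pyruvate kinase, was at 2402 and 2144, 2293 and 2418, and 901 and 596 TPM, and fell to NC by 1.68 on the log2 scale (SE 0.221, limma adjusted p = 0.00509). Its 2 splice forms are not separated in a gene-level table. Without NPC replicate 1 the calls between NC and NPC of Eno2, Pkm, Eno1, Eno1b and Eno3 were lost (limma adjusted p from 0.0538 to 0.0924), and without NPC replicate 2 those of Eno1 and Eno3 (limma adjusted p from 0.057 to 0.111). Eno3 in NC exceeded mESC by 0.84, a value of 0.54 after median-of-ratios scaling and of 0.37 after quantile normalization, where it was not called (limma adjusted p = 0.0724). Among regulators of the Pkm exon choice, Ptbp1 was at 546 and 642 TPM in mESC, 488 and 455 in NPC, then 243.5 and 268 in NC, and its neural paralog Ptbp2 rose from 33.7 and 36.4 TPM to 195 and 225 in NPC (log2 fold change 2.55, limma adjusted p = 0.000101).

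**Figure D3:**
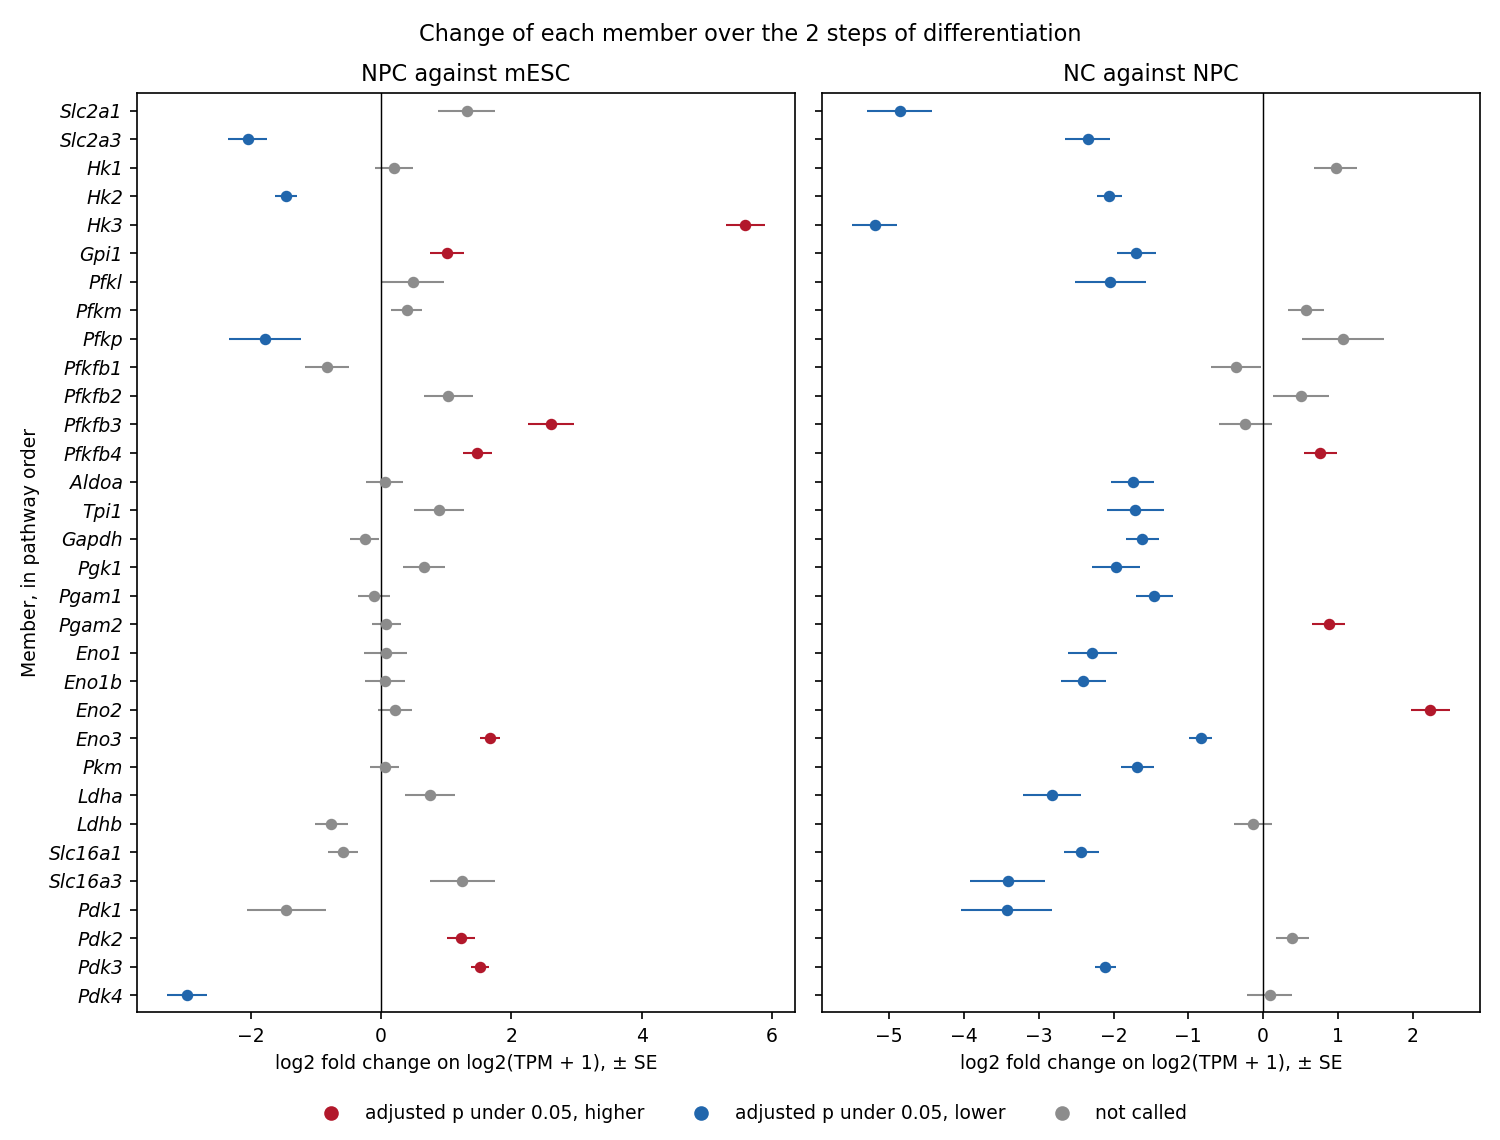
Log2 fold change of each member on log2(TPM + 1), with its SE, for NPC against mESC (left) and NC against NPC (right). Red and blue mark calls at a limma adjusted p under 0.05 and grey no call. On the left 7 members are red and 4 blue, on the right 3 red and 20 blue.

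At the end of the pathway the lactate branch fell with the trunk. Ldha, the lactate dehydrogenase subunit of glycolytic tissues, was at 1081 and 1001 TPM in mESC, 1643 and 1880 in NPC, with 388 and 158 in NC. Ldhb, the subunit of oxidative tissues, was at 548 and 377 TPM in mESC, 271.5 and 264 in NPC, then 301 and 197 in NC. Ldha fell from NPC to NC by 2.82 on the log2 scale (SE 0.383, limma adjusted p = 0.00551), while Ldhb overlapped between these stages (-0.14, SE 0.254, limma adjusted p = 0.733). The ratio of Ldha to Ldhb was 1.97 and 2.66 in mESC, 6.05 and 7.12 in NPC, with 1.29 and 0.801 in NC, so the NPC libraries lay above all others and the NC libraries below.

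Slc16a1, the carrier MCT1, was at 157 and 109 TPM in mESC, 101.5 and 74.3 in NPC, then 14.7 and 16.0 in NC, and fell to NC by 2.43 on the log2 scale (SE 0.231, limma adjusted p = 0.00313). Slc16a3, the carrier MCT4 of lactate-exporting cells, was at 66.9 and 26.2, 82.9 and 123, and 12.4 and 5.83 TPM, and fell by 3.42 (SE 0.499, limma adjusted p = 0.00656). Both were lowest in NC without overlap. Slc16a7, the neuronal carrier MCT2, was listed at 0 in mESC and reached only 2.80 and 1.65 TPM in NC. Bsg, the chaperone of these carriers, was at 560.1 and 322, 821 and 680, and 398 and 339 TPM, and fell to NC (-1.02, limma adjusted p = 0.0362). This call was lost without any 1 of the NC and NPC libraries, the value lying between -1.16 and -0.886 with 1 library left out.

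The fall of Slc16a3 to NC was not called without NPC replicate 1 or NPC replicate 2, nor that of Ldha without NPC replicate 1 (limma adjusted p from 0.0573 to 0.0581). Against mESC, Ldha in NC was lower by 2.07 on the log2 scale, not called without mESC replicate 2 (limma adjusted p = 0.0507), and Slc16a3 (-2.17) and Ldhb (-0.90) were lower too (for Ldhb, limma adjusted p = 0.0211). Without mESC replicate 1 the calls of Slc16a3, Ldhb and Ldha against mESC were lost (limma adjusted p from 0.0534 to 0.14), and without NC replicate 2 those of Slc16a3 and Ldhb (limma adjusted p from 0.0781 to 0.115), Ldhb then being at -0.59. Between mESC and NPC, Ldhb and Ldha were not called with all libraries but were without NC replicate 1 or 2 (limma adjusted p from 0.0142 to 0.0441).

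The PDK kinases, which hold pyruvate back from oxidation, changed their leading member. Pdk1, a known HIF target, was at 186 and 141.5 TPM in mESC, 53.2 and 64.7 in NPC, with 10.4 and 1.69 in NC. The stages did not overlap, and the fall from NPC to NC was 3.43 on the log2 scale (SE 0.607, limma adjusted p = 0.0109). Pdk2 was at 6.70 and 6.82, 18.9 and 15.5, and 26.1 and 19.9 TPM, and rose to NPC (1.23, SE 0.22, limma adjusted p = 0.0057). Pdk3 was at 30.9 and 32.8, 94.2 and 91.8, and 20.1 and 21.4 TPM, rising to NPC (1.52, SE 0.14, limma adjusted p = 0.000422) and falling to NC (-2.11, limma adjusted p = 0.00286). Pdk4, which responds to fasting in muscle and liver, was at 11.8 and 7.49 TPM in mESC and between 0.241 and 0.605 TPM in the other libraries.

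Pdk1 gave 79.0% and 75.0% of PDK TPM in mESC, Pdk3 56.5% and 53.3% in NPC, and in NC Pdk2 gave 45.9% and 45.7% beside 35.4% and 49.0% for Pdk3. The fall of Pdk1 to NC was not called without NPC replicate 1, NPC replicate 2, mESC replicate 1 or mESC replicate 2 (limma adjusted p from 0.0538 to 0.0828), and its value in NPC was called lower than in mESC without NC replicate 1 (limma adjusted p = 0.00737), without NC replicate 2 (limma adjusted p = 0.00724) and with FPKM (limma adjusted p = 0.0382), but not with all libraries (limma adjusted p = 0.102). The rise of Pdk2 was not called without NPC replicate 1 (limma adjusted p = 0.0603). Pdk3 in NC was lower than in mESC by 0.60 on the log2 scale, and by 1.02 after quantile normalization.

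The ratio of mean summed TPM in NPC to that in NC is given here for each step with no test. It was 15.45-fold for the glucose transporters Slc2a1 and Slc2a3 and 7.82-fold for the monocarboxylate carriers Slc16a1 and Slc16a3. Other carriers are not in these sums. It was 3.98-fold for the enolases, 3.89-fold for lactate dehydrogenase, 3.78-fold for phosphoglycerate kinase, 3.15-fold for pyruvate kinase, 3.01-fold for Gapdh and 2.26-fold for hexokinase. For phosphofructokinase it was 1.10, with NC replicate 1 above both NPC libraries, so that no difference beyond the spread was seen. The PFKFB enzymes had a ratio of NC over NPC of 1.07. The member genes of import and export, the ends of the pathway, thus had higher ratios than the steps between.

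Replicates of a stage also differed across the set. In mESC, 24 of 32 members were higher in replicate 1, against 55% of all tested genes, with a median log2 difference of 0.51 (0.05 over all genes) and the largest for Pfkp (1.72). In NC, 22 of 32 were higher in replicate 1, against 46.2% of all genes, with a median of 0.41 and differences from -1.21 (Slc2a1) to 2.08 (Pdk1). In NPC the members were closer, 10 of 32 being higher in replicate 1, against 44.5% of all genes, with a median of -0.17 (-0.02 over all genes). Of 24 HIF pathway genes and targets outside glycolysis, 19 were also higher in mESC replicate 1, such as Vegfa with 123 against 31.6 TPM and P4ha2 with 60.2 against 14.3, both named after their values were seen. The NC libraries differed in progenitor markers, which summed to 1099 and 340.5 TPM, in 4 epithelial markers with sums of 80.6 and 312.5 TPM, in the stem cell RNA-binding gene Lin28a with 2.01 and 33.4 TPM, and in the astrocyte-enriched aldolase Aldoc with 98.6 and 3.02 TPM. The mESC libraries differed in the same epithelial markers (707 and 391 TPM) and in 5 endoderm markers (65.9 and 14.7 TPM). The part of these differences in the values above was not tested.

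Several members share sequence with other annotated genes, which limits their absolute values. Near-copies, here genes whose transcripts match at least 50% of a member's coding sequence at 90% identity or more, were found for 10 members. The 2 processed pseudogenes identical to Pgk1 in the matched part, Gm5537 and Pgk1-rs7, together held 90.1% to 105% of the TPM of Pgk1, and the 3 copies of Pgam1 65.0% to 78.9%. For Eno1 the copies held 87.8% to 104% with Eno1b included, and for Gapdh 150 copies held 26.3% to 32.2%. The copies of Gpi1, Ldhb, Pkm, Ldha and Aldoa held no more than 16.6%. When copies were summed with their member, an alternative chosen after the data were seen, 19 of 31 members were lower and 3 higher in NC than in NPC, Eno1b now being part of Eno1.

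**Figure D4:**
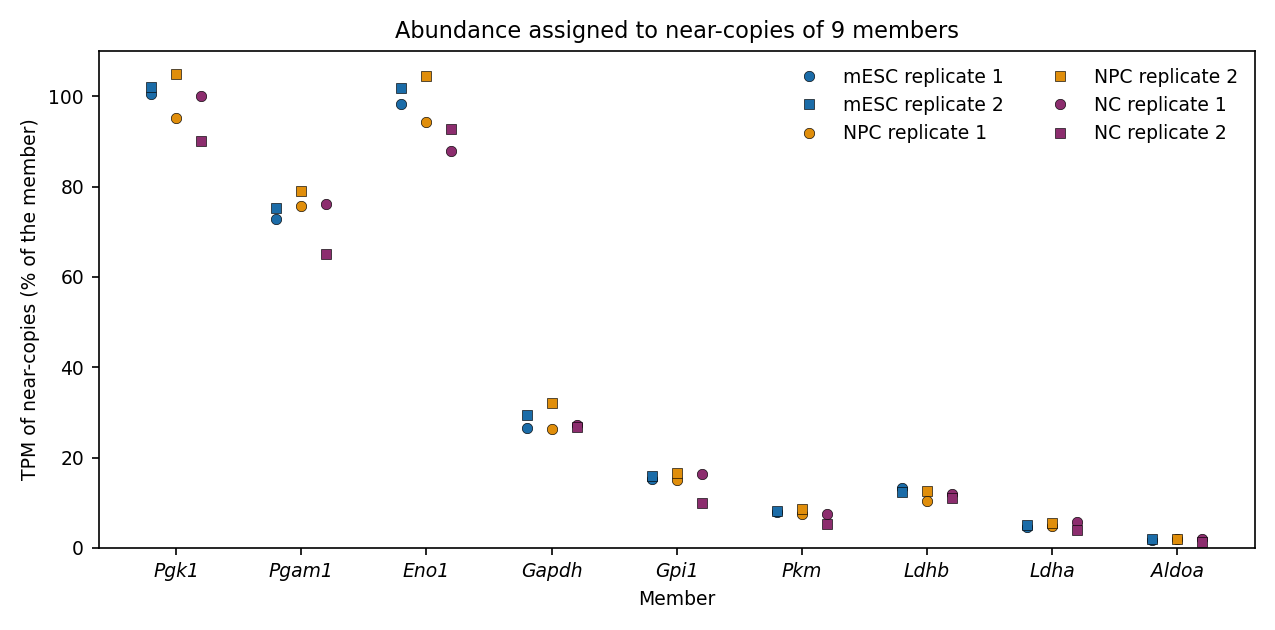
TPM assigned to near-copies as a percentage of the member's own TPM (vertical axis) for 9 members, with colour for the stage and circles and squares for replicates 1 and 2. The percentages are close to 100 for Pgk1 and Eno1 and similar in the 3 stages.

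Other parts of sugar and energy metabolism were set beside the members. Over all tested genes 15.2% were called higher and 10.1% lower in NC than in NPC. Between NC and NPC, 0 of 20 nuclear respiratory chain genes were called by limma in either direction, and 1 higher and 0 lower at an unadjusted p under 0.05; the log2 fold changes ran from -0.28 to 0.39 around a median of 0.09. In the citric acid cycle 2 of 16 rose and 1 fell, the latter Suclg2, a subunit of succinyl-CoA ligase (45.3 and 38.6 TPM in NPC, 14.9 and 9.71 in NC, limma adjusted p = 0.00487, and 0.0633 without NPC replicate 1). Of 11 genes of pyruvate entry into mitochondria 1 rose, Pdp1, a phosphatase that reactivates pyruvate dehydrogenase and so opposes the PDK kinases, from 9.64 and 10.5 TPM to 30.6 and 25.8. It was higher in NC than in mESC by 1.88 on the log2 scale (limma adjusted p = 0.00046), and its call against NPC was lost without NPC replicate 1 or 2 (limma adjusted p from 0.0568 to 0.0787). The pyruvate carrier subunits Mpc1 and Mpc2 stood at 42.4 and 39.6 and at 59.0 and 42.9 TPM in NC, and Mpc2 was higher there than in mESC (1.63, limma adjusted p = 0.00141). Pdha1, a subunit of pyruvate dehydrogenase, went from 159.5 and 166 TPM in mESC to 118 and 118 in NPC, then 116 and 92.0 in NC. It was lower in NC than in mESC (-0.65, limma adjusted p = 0.00948), a call lost without mESC replicate 2. Of the 11 genes of pyruvate entry, 4 were higher and 4 lower in NC than in mESC (36.4% each, against 37.8% and 22.1% of all tested genes). NADH shuttle genes rose for 2 and fell for 3 of 9 from NPC to NC. Without NPC replicate 1 no gene of these 4 lists was called between NC and NPC, and without NPC replicate 2 only Suclg2 was. Got1, the cytosolic aspartate aminotransferase, had already fallen from 227 and 227 TPM in mESC to 81.5 and 77.6 in NPC (limma adjusted p = 0.000258).

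Regulators known to act on glycolysis genes moved in different directions. Hif1a, the oxygen-regulated HIF subunit, was at 57.7 and 63.0 TPM in mESC, 61.3 and 64.9 in NPC, with 82.5 and 94.2 in NC, higher in NC than in mESC (0.54, limma adjusted p = 0.0153, and 0.0556 without NC replicate 2). Of the 24 HIF pathway genes and targets outside glycolysis, 11 rose (45.8%, against 26.0% of all tested genes) and 0 fell (against 14.0%) from mESC to NPC by limma, with a median of 1.10 against 0.18 and 0 lower at an unadjusted p under 0.05. From NPC to NC 1 rose (4.17%, against 15.2%) and 6 fell (25.0%, against 10.1%), with a median of -0.59 against 0.11. The first count lay between 5 and 12 when 1 library was left out, the lowest without NPC replicate 2, and the second between 0 and 8, with 0 without either NPC library. They include Egln1, an oxygen-sensing hydroxylase, with 29.5 and 22.9, 131 and 164, and 68.9 and 57.4 TPM, and Arnt2, a HIF partner of neural cells, with 7.16 and 6.55, 48.0 and 49.3, and 116 and 82.7 TPM. Mycn, the MYC factor of embryonic neural tissue, was at 169.9 and 216, 102 and 126.5, and 47.0 and 39.1 TPM, lower in NC than in mESC by 2.13 on the log2 scale (limma adjusted p = 0.000187). Myc fell from mESC to NPC by 0.77 (limma adjusted p = 0.0185, lost without either NPC library or mESC replicate 2, limma adjusted p from 0.0725 to 0.133) and had no call from NPC to NC (28.5 and 25.9, then 29.9 and 26.2 TPM). Mycl rose from 7.76 and 17.1 TPM to 135 and 140.1 in NPC (3.46, limma adjusted p = 0.000569).

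**Figure D5:**
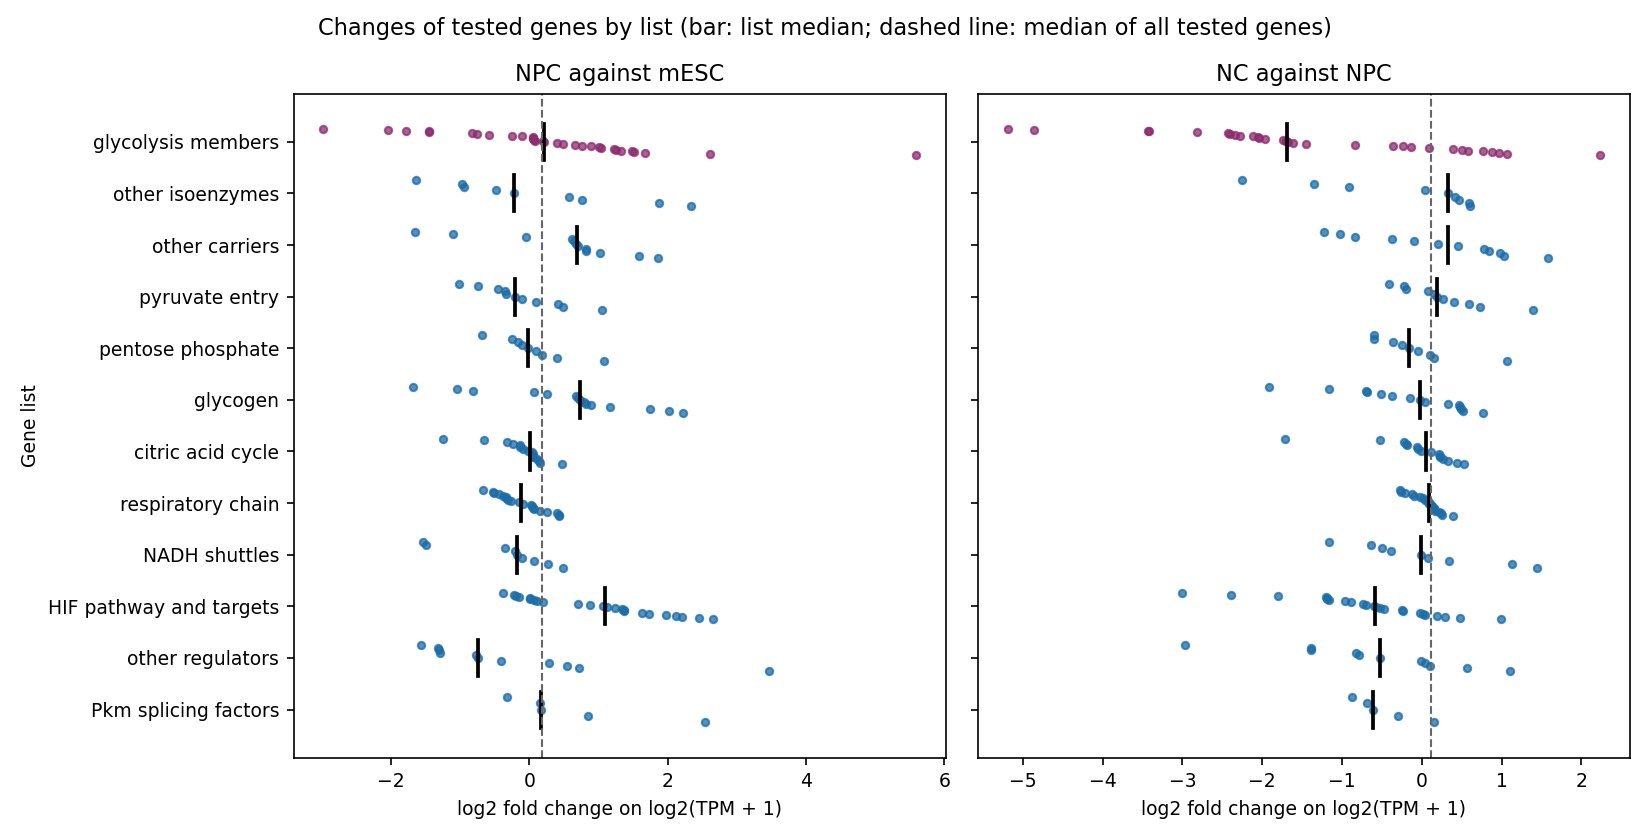
Log2 fold change on log2(TPM + 1) of every tested gene in the glycolysis set and 11 other lists, for NPC against mESC (left) and NC against NPC (right), with bars for list medians and a dashed line for the median of all tested genes. On the right the glycolysis median is -1.69, while that of the respiratory chain is 0.09.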

How the data were processed

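RNA abundance was measured in 6 libraries, 2 for each of mESC, NPC and NC. Per the submitters' processing notes the authors' tools were STAR 2.7.9a, cutadapt 3.4, FastQC, DESeq2, StringTie 2.1.5 and R 4.0.3 and their build mm10; order and settings are not stated there. Per the file headers the deposited tables are StringTie gene abundances: coverage (a signal not scaled to depth), FPKM and TPM. No source used here gives the annotation release. Read counts were not analysed here, so counting intervals cannot be given, and precision rests on 2 replicates.

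The 20232 genes reaching 1 TPM in 2 or more libraries were tested with limma 3.58.1 in R 4.3.3 (lmFit, eBayes with a trend) on log2(TPM + 1), fitted to all 6 libraries with 3 residual degrees of freedom, two-sided, with Benjamini-Hochberg adjustment over all tested genes and 0.05 as the threshold. The pseudocount of 1 shrinks fold changes of low genes. Groups of 2 allow no permutation p under 0.05. The p-values measure the spread between libraries, and nothing states that replicate numbers mark shared cultures. The fit was tested on simulated data. Repeated lines of an ID were summed. Near-copies were found with blastn 2.17.0 against GENCODE vM21 transcripts. Values in each library are given for members called in any contrast with a log2 fold change of at least 1 in size and for families of 2 or more members; from each other list up to 3 genes with the largest called change may be named, and Aldoc, Bpgm, Slc16a7, Mpc1, Mpc2, Pdha1, Hif1a, Myc, Mycn, Ptbp1 and Ptbp2 whatever their values. The members and lists were chosen with earlier results of these data known. In all, 19 alternatives were run. Some genes that this rule would name are not reported here.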

Additional observations from a re-analysis of the deposited data

How the results depend on the processing

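Over 19 alternatives no member's log2 fold change that was called changed its direction. Of the member values under alternatives, 1665 kept their side of the threshold, 110 lost and 43 gained a call. Members lower in NPC than in mESC were 4, but 8 with deposited FPKM and 7 with median-of-ratios scaling. Members higher in NC than in NPC were 3, but 1 with no filter beyond a TPM above 0 (3166 genes called in place of 5123) and 1 with the replicate block, and 0 to 2 when 1 library was left out. Members lower in NC than in NPC were 5 to 20, genes called in that contrast 309 to 4156, and genes called between NPC and mESC 4032 to 8484, when 1 library was left out. Deviations of same-numbered libraries correlated at 0.045, -0.082 and -0.070 over genes, which are not independent. With 1 difference between replicates per stage, such values cannot show whether replicate numbers pair the samples. With the replicate block 20 members were lower in NC than in NPC. Leaving out a library leaves its stage with 1, assumed to vary like the others. The cause of these changes was not tested. Without counts, how far depth limits low members such as Pdk4 and Hk3 is unknown.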

Other observations

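Genes of glycogen storage and breakdown changed in both directions on the way to NPC. Over all tested genes 26.0% rose and 14.0% fell in this step, and 15.2% rose and 10.1% fell from NPC to NC. Of 15 tested, 6 rose and 3 fell, but 3 rose and 0 fell without NPC replicate 1, and 2 and 0 without NPC replicate 2. The branching enzyme Gbe1 went from 4.34 and 4.51 TPM to 18.1 and 32.5 (log2 fold change 2.22, limma adjusted p = 0.00214) and glycogenin, Gyg, from 10.3 and 8.201 to 41.0 and 39.2 (2.01, limma adjusted p = 0.00211). From NPC to NC 0 rose by limma (2 at an unadjusted p under 0.05) and 2 fell, among them Pgm2, whose fall of 1.92 was not called without any 1 library (limma adjusted p from 0.0511 to 0.193). In the pentose phosphate pathway 1 of 9 genes rose and 1 fell from mESC to NPC, and 1 rose and 0 fell by limma from NPC to NC (1 fell at an unadjusted p under 0.05), while without NPC replicate 2 neither step had a call. Rpia, the ribose isomerase, rose to NPC (1.08, limma adjusted p = 0.00853, and 0.0896 without NPC replicate 2). Of 6 gluconeogenesis genes 3 were tested, and Fbp2 was at 4.28 and 1.95 TPM in mESC and listed at 0 in the other libraries.

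Among 9 tested minor isoenzymes, 3 rose and 2 fell from mESC to NPC, and 1 and 1 without either NPC library. With all libraries these were 33.3% and 22.2% of the 9, against 26.0% higher and 14.0% lower over all tested genes. Gapdhs, the sperm form of Gapdh, rose from 2.58 and 0.799 TPM in mESC to 9.99 and 11.4 in NC (2.20, limma adjusted p = 0.00225). Bpgm, which makes 2,3-bisphosphoglycerate, rose from 23.7 and 30.1 to 68.6 and 55.4 TPM over the same span (1.18, limma adjusted p = 0.00222). Tigar, a phosphatase that opposes the PFKFB kinases, fell from 39.8 and 47.1 TPM in mESC to 13.3 and 13.2 in NPC (-1.64, limma adjusted p = 0.000682).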
